A study of Mus musculus with 12 samples.

Results

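Among stromal cells of mouse hind limb joints, 347 fibroblasts carried a set of genes made up of the serine protease inhibitor *Serpina3c*, the Wnt antagonist *Dkk2*, the detoxifying enzymes *Aldh3a1*, *Adh7* and *Cyp2f2*, and *Penk*, the precursor of the enkephalin opioid peptides. They were 2.11% of 16430 fibroblast-marker cells and 1.65% of all 21042 deposited cells. A cell counted as a member when it had more than 500 and fewer than 5000 detected genes, at least 4 of the 7 fibroblast markers *Dcn*, *Lum*, *Gsn*, *Fbln1*, *Pdpn*, *Pdgfra* and *Serpinf1*, and at least 4 of the 6 subset genes. It also had at most 1 of the inflammatory genes *Ccl7*, *Ptx3* and *Tnfaip6*. A gene was detected with 1 or more UMIs (unique molecular identifiers, tags that mark single captured RNA molecules). Of the members, 263 had exactly 4 of the 6 subset genes, 73 had 5 and 11 had all 6. Another 177 cells had enough subset genes and were left out by the inflammatory limit.

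Droplet 3′ RNA sequencing covered 12 libraries of CD45-negative cells, that is cells without the pan-leukocyte surface marker, each pooled from the joints of 3 animals. The animals were wild-type C57BL/6 males of 8 to 10 weeks, injected intravenously with arthritogenic serum of K/BxN mice (STIA, serum transfer-induced arthritis). The comparison was between 4 labels of 3 libraries each. Rest libraries were taken on day 0 with no treatment listed, and peak libraries on days 7 to 9 after serum. Day 15 gave the resolving libraries and day 22 the resolved ones. A library is a pool, so its level averages over its animals, and a joint digest cannot tell fewer cells of a type from fewer cells released.

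Enzymes such as aldehyde and alcohol dehydrogenases, cytochromes P450 and glutathione transferases turn reactive aldehydes, alcohols and xenobiotics into products that a cell can excrete. Dkk proteins bind LRP co-receptors and so limit canonical Wnt signalling, and enkephalins act on opioid receptors of sensory neurons and immune cells. Synovial fibroblasts form a lining layer with *Prg4* (lubricin) and a sublining with *Thy1* and *Cd34*, and a CD34-positive sublining type with *Pi16* and *Dpp4* is a known matrix-rich fibroblast of many organs.

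Libraries stood apart in a way that the labels did not follow, which bears on every comparison between labels. Cell barcodes end in a suffix from 1 to 12, and the summed profile of the other fibroblast-marker cells was nearest to a library from the same run of 3 suffixes (1 to 3, 4 to 6, 7 to 9, 10 to 12) in 12 of 12 cases. It was nearest to a library with the same label in 0 of 12 cases. Each run holds 3 different labels, and what the runs are is not stated in the labels. Sums over members were nearest to the same run in 5 of 12 cases and to the same label in 1 of 12. Rest, peak, resolving and resolved below therefore mean the library labelled so. All libraries had the same median of 5358 UMIs per cell, and no barcode was shared between libraries. Members had a median of 5158 UMIs (1637 to 26458) and 1796 genes, against 5961 UMIs and 1930 genes in the other 16083 fibroblast-marker cells. Their median mitochondrial share was 2.25%, against 2.41%.

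Beside the fibroblast markers of the rule, of which *Dcn* (decorin) had a UMI in 347 of 347 members and *Pdgfra* in 59.1%, markers of other cell types differed in how often they were found in members. *Ptprc*, *Sox10*, *Adipoq* and *Krt5*, markers of leukocytes, Schwann cells, adipocytes and basal keratinocytes, were each found in 0 of 347 members. Such a count allows a share of up to 0.865% of cells with a UMI and sets no limit on expression. Other markers of these cell types were found in members. The summed keratinocyte markers had a median over libraries of 48.4 CPM in members against 34.6 in the other cells. Adipocyte markers stood at 45.7 against 77.3, Schwann markers at 36.5 against 89.5 and immune markers at 6.02 against 21.7. The adipocyte sum of members reached 570 CPM in its highest library. *Bglap* (osteocalcin, osteoblasts) was found in 2.88%, *Pecam1* (endothelium) in 2.59% and *Rgs5* (pericytes) in 1.73%. Cartilage and tendon markers were more frequent. *Col2a1* (cartilage collagen) had a UMI in 38 members, a share of 10.95% that compares with 11.53% of other fibroblast-marker cells, and *Tnmd* (tenomodulin, tendon) in 33.1% against 29.4%. The summed tendon markers ran from 2270 to 3704 CPM in members and from 4232 to 6762 CPM in the other cells. Their part in the results was not tested beyond the comparisons given. No member had 3 or more of the 8 cycling genes, against 851 of the other fibroblast-marker cells. The class of other cells is broad: 7723 of its 16083 cells (48.0%) had 3 or more markers of cartilage, bone, tendon, vessel, muscle, nerve sheath or immune cells, as did 57 members (16.4%). For that reason ratios of many of the genes below are also given against 1780 sublining-marker cells, which are other fibroblast-marker cells with at least 4 of *Cd34*, *Thy1*, *Pi16*, *Dpp4* and *Col14a1*.

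The 6 subset genes chose the cells, so their levels are given as a description. Levels are CPM, the counts scaled to a common total per library, of the UMIs summed over a library's members, in the 8 libraries with 10 or more members. *Penk* had the highest median, 532 CPM (345 to 717), against 108 CPM (47.8 to 157) in the other fibroblast-marker cells. *Aldh3a1* was at 422 CPM (261 to 853), against 70.1 (18.1 to 123). *Dkk2* was at 328 CPM (215 to 542), against 43.9 (30.5 to 76.1). *Cyp2f2* was at 301 CPM (199.99 to 489), against 43.1 (17.7 to 66.0). *Serpina3c* was at 221 CPM (165 to 317), against 20.2 (4.67 to 63.8), and *Adh7* at 177 CPM (155 to 259), against 22.4 (10.9 to 48.6). Over the 8 libraries the ranges of members and other cells did not overlap for any of the 6, which follows from how the cells were chosen.

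**Figure D1:**
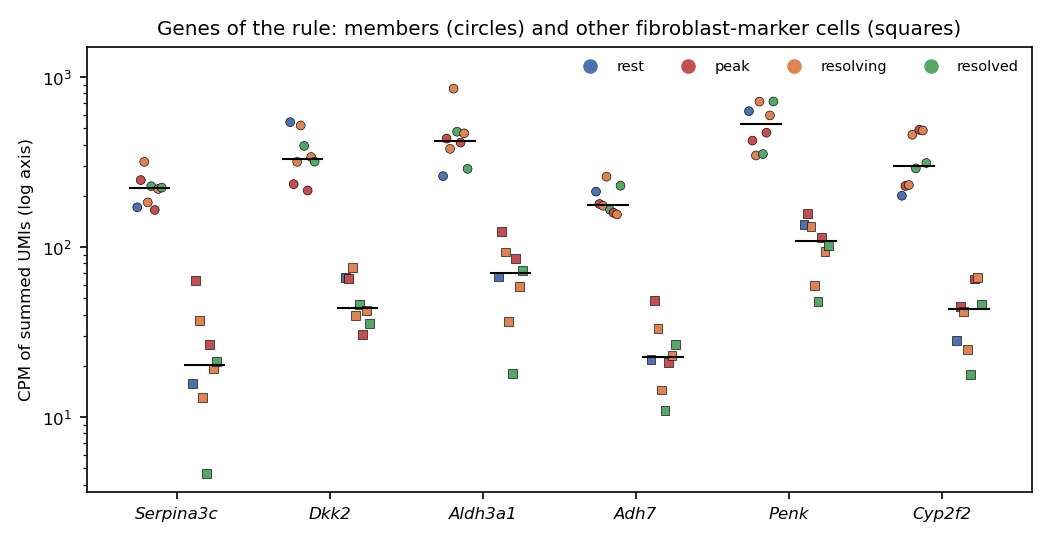
Level of the 6 subset genes in each of the 8 libraries with 10 or more members, as CPM of summed UMIs on a log axis; circles are members, squares are the other fibroblast-marker cells, colours are the labels and bars are medians. Members lay above the other cells for each gene, which follows from how they were chosen.

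The genes were far from always found together. Within members the pair found together most often was *Aldh3a1* and *Penk*, in 199 cells (57.3%), and the rarest was *Adh7* and *Cyp2f2*, in 126 cells (36.3%). Over all 16430 fibroblast-marker cells *Adh7* was found in 10.3%, yet in 21.7% of the cells with *Aldh3a1*. *Penk* was found in 21.1% of all and in 39.2% of the cells with *Serpina3c*. In 1769 cells with at least 4 vascular endothelial markers (median 3373 UMIs) the 6 genes were found in 0.226% (*Serpina3c*) to 2.66% (*Dkk2*). How much of this came from free RNA in the droplets was not tested. These cells were shallower than members (median 5158 UMIs), so the shares set no bound for members. Just outside the limit lay 934 cells with exactly 3 of the 6 genes, of which 570 also met the inflammatory limit, and these are set beside the 263 members with exactly 4. *C3* had a UMI in 65.8% and 73.4%, *Inmt* in 34.9% and 42.6%, *Mgst1* in 87.0% and 91.3% and *Pi16* in 44.9% and 52.1%.

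In GRCm38 coordinates *Serpina3c* (ENSMUSG00000066361) spans 104146382 to 104153870 of chromosome 12 (minus strand), among related Serpina3 genes. Whether its reads and those of *Serpina3m* and *Serpina3n* were told apart in the counting was not tested. *Dkk2* lies on chromosome 3 from 132085292 to 132180304, *Adh7* on chromosome 3 from 138217760 to 138233382, *Cyp2f2* on chromosome 7 from 27119909 to 27133660 and *Aldh3a1* on chromosome 11 from 61207537 to 61218421, all on the plus strand. *Penk* spans 4133531 to 4138819 of chromosome 4 (minus strand) and overlaps the model A830012C17Rik on the other strand. Of the 6 genes, RefSeq start regions (GRCm38.p6) were at hand for 4. The rule required at least 4 of the 6 genes in each member, so their joint detection is no result. The 150 bases before the start are shown for the 3 that held a match to a searched motif, with matches in capitals:
Serpina3c (chr12:104153873-104154022, minus strand): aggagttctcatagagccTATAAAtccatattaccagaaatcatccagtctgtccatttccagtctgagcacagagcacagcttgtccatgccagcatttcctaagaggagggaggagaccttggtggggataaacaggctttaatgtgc
Dkk2 (chr3:132085142-132085291, plus strand): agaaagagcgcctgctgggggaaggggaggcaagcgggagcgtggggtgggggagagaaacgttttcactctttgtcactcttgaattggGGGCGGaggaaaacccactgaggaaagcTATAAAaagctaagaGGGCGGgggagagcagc
Adh7 (chr3:138217623-138217772, plus strand): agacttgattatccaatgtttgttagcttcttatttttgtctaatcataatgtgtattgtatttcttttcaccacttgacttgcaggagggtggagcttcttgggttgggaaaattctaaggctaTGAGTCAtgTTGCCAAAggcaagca

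The motifs were searched on both strands and none of those found overlapped another. The TATA box (TATAAA) matched 132 to 127 bases before the start of *Serpina3c* and 32 to 27 bases before that of *Dkk2*, and it matched 8.08% of all 27025 start regions of this length. The GC box (GGGCGG) matched *Dkk2* at 2 places and 29.0% of all regions. *Adh7* held an AP-1 motif (TGANTCA) 25 to 19 bases and a C/EBP motif (TTGCNNAA) 16 to 9 bases before its RefSeq start, and these matched 4.27% and 5.48% of all regions. RefSeq starts can differ from the gene coordinates given above. The region of *Adh7* ends at 138217772, past the gene's first base at 138217760, which the C/EBP match crosses. That of *Cyp2f2* ends at 27119954, past 27119909. The STAT motif (TTCNNNGAA) matched none of the 4 and 4.17% of all. *Cyp2f2* held no match to any of the 5. No motif was shared by more than 2 of the 4 regions, and a match is a run of letters, not a shown binding site.

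Outside the rule, 5379 genes were measured at a mean of 20 CPM or more in members or in the other cells. Ratios are log2 of CPM + 5, so they understate the difference for low genes. Of these genes 244 (4.54%) were higher in members in all 8 libraries and 511 (9.5%) lower, and 6 (0.112%) and 56 (1.04%) were at least 2-fold higher or lower in each library. The median ratio over all genes was -0.07. Since the cells were chosen from the same counts, no test was made of members against other cells. The 6 genes at least 2-fold higher in every library were *Adam33*, *C3*, *Cd34*, *Mgst1*, *Ms4a4d* and *Serpina3n*. That count was 0 when cells with 3 or more markers of another cell type were left out, and 3 against sublining-marker cells.

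The gene with the largest median ratio was *Ms4a4d*, a tetraspan membrane protein gene, at 89.9 CPM (70.5 to 106) in members and 22.5 CPM (10.8 to 44.3) in other cells, a log2 ratio of 1.89 (1.05 to 2.47 over 8 libraries). *Amy1* (amylase) followed at 1.82 and *Figf*, the lymphatic growth factor VEGF-D, at 1.79. *Entpd2*, which splits extracellular ATP, was abundant at 415 CPM (349 to 559) in members against 136 (90.1 to 191), a ratio of 1.75. *Il1r2*, a decoy receptor that takes up interleukin-1 without signalling, had a ratio of 1.67 (0.23 to 2.73). *Inmt*, an indolethylamine methyltransferase, stood at 325 CPM (171 to 479) against 90.0 (13.3 to 188), a ratio of 1.62. Against sublining-marker cells *Inmt* was at 1.37, *Il1r2* at 0.78 and *Entpd2* at 0.58. The genes were picked for a large ratio and 1 direction in every library, so higher values in each of the 8 libraries follow from the choice. For *Il1r2* and *Inmt* the ranges of members and other cells overlapped.

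The rest of the 20 highest genes ran from *Slco2a1*, a prostaglandin transporter, at 1.61 to *Maob*, a monoamine oxidase, at 1.40. Secreted products among them were *Fgf7* (keratinocyte growth factor, 1.52), *Rarres2* (chemerin, 1.46) and *Apod* (apolipoprotein D), which reached 4123 CPM (3174 to 6270) in members against 1446 (509 to 2317). *Adam33*, a metalloprotease, was at 1.36 even in the library with its lowest ratio. *Aldh1a1*, which makes retinoic acid from retinal, was at 1.48. Against sublining-marker cells all 20 genes kept a positive median, and 8 of 20 stood at 1 or more. *Apod* was at 1.62, *Amy1* at 1.49 and *Fgf7* at 1.44, whereas *Engase* was at 0.25 and *Adam33* at 0.27.

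**Figure D2:**
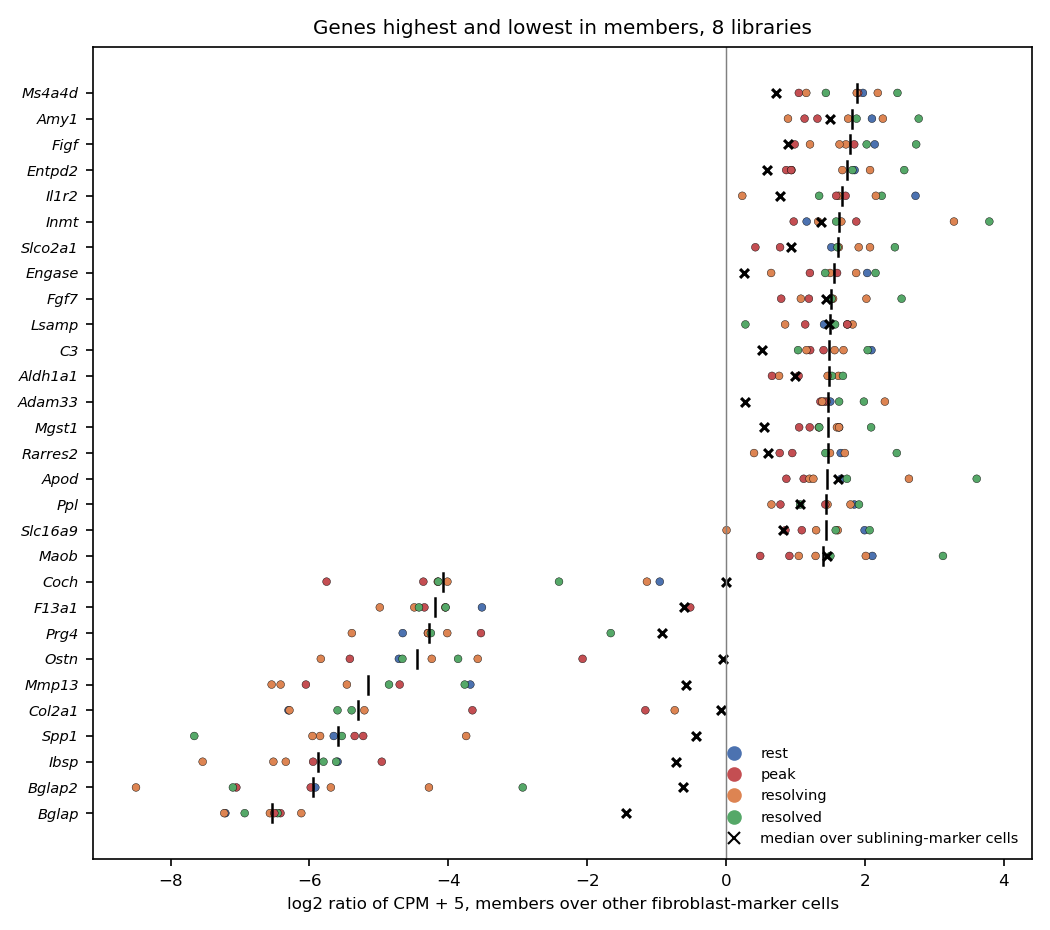
Log2 ratio of CPM + 5 in members over other fibroblast-marker cells, one point for each of 8 libraries coloured by label, bars at the median and crosses at the median over sublining-marker cells. The high genes drawn, all but 1 of the 20 highest, lay above 0 in every library, which follows from how they were picked. The crosses of the 10 lowest genes lay between -1.44 and 0.

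Enzymes of aldehyde, alcohol and xenobiotic metabolism beyond the rule genes were mostly higher. Of 25 measured genes of a list of 39, 6 were higher in members in every library and 2 lower, with a list median of 0.43 against -0.07 over all genes, and 19 of 25 had a median above 0. The 6 were *Mgst1* (1.47), *Aldh1a1* (1.48), *Gstt1* (0.95), *Gstm1* (0.87), *Gstm2* (0.77) and *Ephx1*, the microsomal epoxide hydrolase (0.64). *Mgst1*, a membrane-bound glutathione transferase, was at 728 CPM (625 to 822) in members, above every other-cell value (161 to 364), and had a UMI in 92.5% of members. *Gsta3* had the largest median of the list, 1.89, but was at 0 CPM in the members of resolved replicate 2. The 2 lower genes were *Cyp1b1* (-1.88) and *Aldh1a3* (-1.78). Against sublining-marker cells *Mgst1* was at 0.55 and *Gstm1* at 0.07. Of 13 antioxidant genes 0 were higher in every library and 2 lower, shares near the 4.54% and 9.5% of all genes. The 2 were *Txnrd1* (thioredoxin reductase, -1.32) and *Sod2* (-0.67), at -0.84 and -0.17 against sublining-marker cells.

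Among serpins, 4 of 9 measured genes were higher in every library and 1 lower, and 5 of 9 had a median above 0. Over all genes measured, 4.54% were higher and 9.5% lower in every library. *Serpina3n*, a broad serine protease inhibitor, was at 354 CPM (235 to 600) in members and 113 CPM (65.1 to 149) in other cells, a ratio of 1.39, and stayed at 1.17 against sublining-marker cells. *Serpina3m* had a ratio of 1.08 and *Serping1*, the C1 inhibitor, of 0.94 at 3991 CPM in members. Reads of *Serpina3n* and *Serpina3m* may not have been told apart from those of the rule gene *Serpina3c*, which was not tested. The list median was 0.20.

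Complement genes paralleled the serpins, with 5 of 10 higher in every library and 1 lower, at a list median of 0.40. The shares over all genes measured were 4.54% and 9.5%. *C3*, the central component, was at 650 CPM (523 to 910) in members, above the highest other-cell value (142 to 335), and had a UMI in 74.9% of members, 66.6% of sublining-marker cells and 4.64% of endothelial-marker cells. *Cfb* (factor B of the alternative pathway) had a ratio of 1.29, *C4b* of 1.28, *C1ra* of 0.90 and *C1s1* of 0.79. *Clu* (clusterin, a complement inhibitor) was lower at -2.11 but stood at 1.01 against sublining-marker cells, so its place depended on the cells compared. *C4b* kept a ratio of 1.17 and *C3* of 0.52 in that comparison.

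Around *Dkk2*, 13 Wnt pathway genes were measured and 0 were higher in every library, against 4.54% of all genes measured. The antagonists *Wif1* (-2.95) and *Dkk3* (-1.32) and the ligand *Wnt16* (-2.72) were lower in each, and *Wif1* turned to 0.90 against sublining-marker cells. *Sfrp1*, a secreted Wnt binder, had a median of 1.04 and was higher in 7 of 8 libraries. The list median was 0.41. *Sfrp4* was among the 5 genes that varied most between the members of different libraries, from 41.4 CPM in resolved replicate 2 and 91.4 in resolving replicate 2 to 2684 CPM in rest replicate 1.

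Around *Penk*, the neuropeptide list divided. The neurotrophin *Ntf3* (0.89) and the receptor *Ntrk2* (TrkB, 0.89) were higher in all 8 libraries, and the neuropeptides *Tac1* (-2.81) and *Npy* (-2.60) and the processing enzyme *Cpe*, carboxypeptidase E (-2.28), were lower in all 8. *Cpe* trims neuropeptide precursors such as proenkephalin; it stood at 47.7 CPM (23.5 to 98.9) in members. Against sublining-marker cells *Ntf3* was at 1.38, *Ntrk2* at 1.02 and *Tac1* at -2.06, whereas *Cpe* was at 0.22. The opioid precursors *Pdyn* and *Pnoc* and the receptors *Oprm1*, *Oprd1*, *Oprk1* and *Oprl1* were at 0 UMIs in the members of these libraries. The convertases *Pcsk1* and *Pcsk2* were at 0 as well.

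Members shared sublining markers in part with the sublining-marker cells, and where in the joint they lay was not measured. *Cd34*, the stem and stromal surface sialomucin, had a UMI in 93.9% of members, 99.4% of sublining-marker cells, 37.6% of 660 lining-marker cells and 56.0% of all other fibroblast-marker cells. Its level was 1160 CPM (747 to 1352) in members against 457 (288 to 575), a ratio of 1.39. *Thy1* (0.87) and *Pi16* (0.84) were higher in every library, and *Dpp4* (0.97) in 7 of 8. *Pi16* had a UMI in 56.5% of members and *Dpp4* in 18.7%, against 94.2% and 40.2% of sublining-marker cells, which were chosen by these genes. Of the members 73 themselves had 4 or more of the 5 sublining markers. With 3 or more, the share was 54.5%, against 28.6% of other fibroblast-marker cells. No member had 3 or more of the 5 lining markers.

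*Prg4*, the lining marker, still had a UMI in 66.9% of members at 503 CPM (213 to 1800). It was also found in 47.8% of endothelial-marker cells, which should lack it, at 759 pooled CPM against 523 in members. With median depths of 3373 and 5158 UMIs, the share and the CPM ordered the classes differently, so no order is read from them. *Clic5*, the other lining marker, was at 0 in the members of all 8 libraries.

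The 10 lowest genes were *Bglap*, *Bglap2*, *Ibsp*, *Spp1*, *Col2a1*, *Mmp13*, *Ostn*, *Prg4*, *F13a1* and *Coch*, with median ratios of -6.54 to -4.08. All but *Coch* are markers of bone, cartilage and lining cells, and the class compared holds such cells. The summed osteoblast markers ran from 813 to 5199 CPM there and from 0 to 81.2 CPM in members. Against sublining-marker cells only *Bglap*, of the 10, was lower by 1 or more (-1.44). Over all genes measured, 4.54% were higher and 9.5% lower in every library. Collagens were 0 of 20 higher and 6 lower in every library, among them *Col22a1*, at 0 in the members of all 8 libraries, *Col8a1* (-2.97, and -1.82 against sublining-marker cells) and *Col12a1* (-2.50). The main fibrillar genes were near the other cells, with *Col1a1* at -0.30, *Col1a2* at -0.08 and *Col3a1* at 0.22. Of 33 matrix and remodelling genes 11 were lower and only *Tnxb* (tenascin X, 0.55) higher in every library. *Tnc* (tenascin C) at -3.48 and *Fn1* (fibronectin) at -1.67 were among the lower ones, and *Tnc* kept -1.82 against sublining-marker cells.

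**Figure D3:**
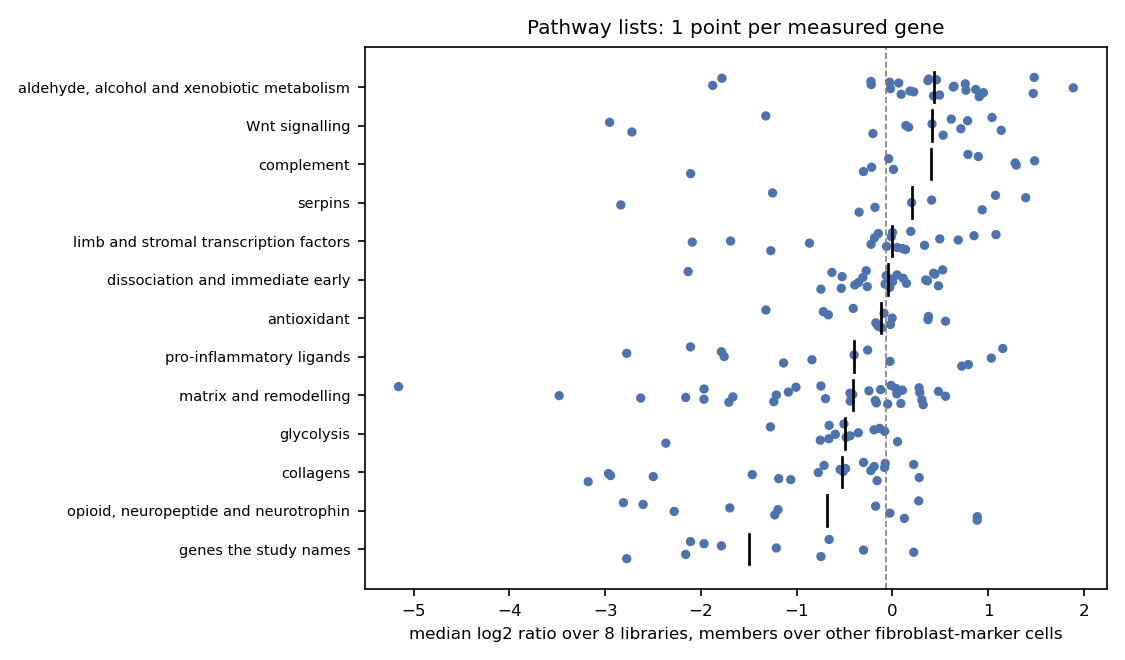
Median log2 ratio over 8 libraries of members over other fibroblast-marker cells, one point for each measured gene of 13 pathway lists, with a bar at each list's median; the dashed line is the median over all genes, -0.07. The enzyme list had the highest median, 0.43, and the 10 genes the study names the lowest, -1.50.

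Several inflammatory genes were lower in members. The rule itself holds a limit on *Ccl7*, *Ptx3* and *Tnfaip6*, so their low level is not independent of how the cells were chosen. Cells left out by this limit count among the other cells. By run they had *Cxcl1* at 1561 to 3270 pooled CPM, against 298 to 1050 in members. The part of the limit in the low levels of further inflammatory genes was not tested. Of 13 measured pro-inflammatory ligands *Cxcl1* (-1.79), *Cxcl2* (-2.77) and *Cxcl10* (-1.76) were lower in every library, at -1.96, -2.19 and -1.54 against sublining-marker cells. The share lower in every library over all genes measured was 9.5%. *Cxcl12*, the chemokine that retains CXCR4-bearing cells, was higher at 1630 CPM (1111 to 4585) against 825 (585 to 922), with no overlap of ranges. Its ratio was 1.03, and 1.97 against sublining-marker cells. *Csf1*, the macrophage growth factor, had a ratio of 0.72. The 177 cells that the limit left out had *Cxcl1* in 81.4% of cells and *Hk2* in 65.5%, yet *C3* in 87.6% and *Mgst1* in 90.4%, shares close to those of members for the latter. By run, 17.6% to 18.9% of cells with 4 or more subset genes were left out in libraries 1 to 3 and 55.6% to 72.2% in libraries 4 to 6. The shares were 33.3% to 37.9% in libraries 7 to 9 and 40.2% to 51.1% in libraries 10 to 12.

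*Hk2*, the hexokinase at the centre of the study, spans 82725025 to 82774454 of chromosome 6 (GRCm38, minus strand) and shares that stretch in part with Gm17034 of the opposite strand. It had a UMI in 25.4% of members (95% Wilson interval 21.1 to 30.2, counting error of pooled cells only), 46.6% of other fibroblast-marker cells and 2.94% of endothelial-marker cells. When each cell was thinned to 2000 UMIs (5 members and 212 other cells were too shallow), the shares were 14.9% and 25.3%. Libraries differed more widely, from 1 of 18 members in resolving replicate 2 to 25 of 55 in peak replicate 3. Cells left out by the inflammatory limit count among the other cells. By run they had *Hk2* at 223 to 401 pooled CPM, against 40.4 to 236 in members. The part of the limit in the lower share of members was not tested. By library, the members of rest replicate 1 had 84.1 CPM, those of peak replicates 1 and 3 had 103 and 290, those of resolving replicates 1 to 3 had 102, 15.2 and 155, and those of resolved replicates 2 and 3 had 20.7 and 188. Other fibroblast-marker cells of these libraries ran from 98.3 to 302 CPM, with members lower in 7 of 8. The median ratio was -0.66, and -0.89 against sublining-marker cells. High values came from libraries 10 to 12 in both classes of cells. Over all genes measured, 4.54% were higher and 9.5% lower in every library. Of 14 measured glycolysis genes 0 were higher and 5 lower in every library, including *Ldha* (-0.75), *Pkm* (-0.66) and *Gapdh* (-0.60), at a list median of -0.49. Against sublining-marker cells these 3 were at -0.39, -0.25 and -0.38. *Tnf* was found in 1 member.

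*Timp1*, an inhibitor of matrix metalloproteases and one of the genes the study names, lay between 110 and 152 CPM in the members of all 8 libraries, against 333 to 1158 CPM in the other cells, so members were lower in every library (-1.97, and -0.50 against sublining-marker cells). Among these 8 libraries the high levels of other cells, 1158 and 1013 CPM, were in those with suffixes 7 and 8, whose members had 152 and 124. Other cells pooled over suffixes 4 to 6, with too few members to be among the 8, were at 3938 CPM. Members pooled over these suffixes were at 162 CPM, from 12 UMIs. In the 8 libraries the member values of *Timp1* rested on 6 UMIs (resolved replicate 2) to 67 UMIs (peak replicate 1). *Cxcl1* ran from 138 to 1543 CPM in members and from 861 to 3251 in other cells. *Ccl2* was higher in members of resolving replicate 3, at 2247 CPM, than in its other cells at 825, and lower in the other 7 libraries. That value rested on 6 of 22 members, of which 1 held 88 of the 246 UMIs.

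**Figure D4:**
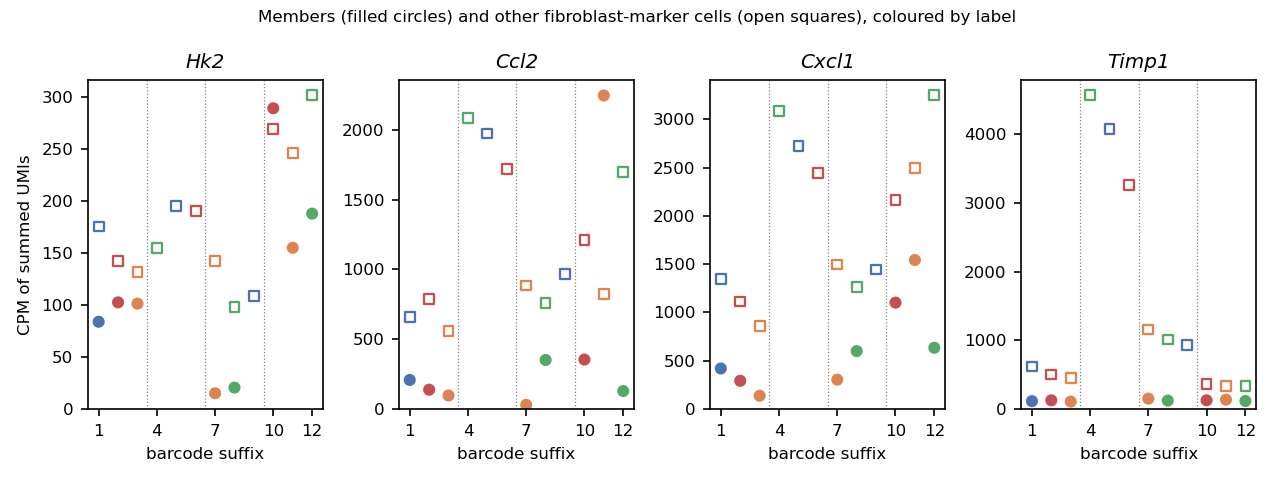
CPM of summed UMIs for 4 genes by library, ordered by barcode suffix with dotted lines between runs; filled circles are members of libraries with 10 or more of them, open squares other fibroblast-marker cells of all 12, colours the labels. Timp1 lay between 110 and 152 in the members drawn. The open squares cover more libraries, among them suffixes 4 to 6, where other cells pooled at 3938 and no members are drawn.

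The share of fibroblast-marker cells that were members varied more between runs than between labels. In the rest libraries it was 3.91%, 0.397% and 0.774% (replicates 1 to 3), and at peak 8.44%, 0.360% and 2.85%. In the resolving libraries it was 4.18%, 1.22% and 1.99%, and in the resolved ones 0.731%, 0.507% and 2.53%. Each label thus spans low and high libraries, and the labels overlap. The means were 1.69% ± 1.93 (SD, n = 3) at rest, 3.89% ± 4.14 at peak, 2.46% ± 1.54 in the resolving and 1.26% ± 1.11 in the resolved libraries. Differences from rest were 2.19, 0.77 and -0.44 percentage points (p = 0.7, 0.5 and 0.8 by exact two-sided permutation of libraries, a design of 3 against 3 that cannot go below 0.1). Over all 4 labels the exact permutation p was 0.649.

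Grouped by barcode suffix, members made up 3.91% to 8.44% in libraries 1 to 3 (186 members) and 0.360% to 0.731% in libraries 4 to 6 (19 members). It was 0.507% to 1.22% in libraries 7 to 9 (38 members) and 1.99% to 2.85% in libraries 10 to 12 (104 members). The 4 ranges did not overlap except that those of 4 to 6 and 7 to 9 did. Without the inflammatory limit the ranges were 4.74% to 10.4%, 0.991% to 1.64%, 0.760% to 1.96% and 4.08% to 4.77%. Thinned to 2000 UMIs they were 0.766% to 2.1%, 0.185% to 0.357%, 0.129% to 0.652% and 0.472% to 0.732%, from 77 members. Members of the libraries with suffixes 4 to 9 were also shallower, with medians of 2542 to 4497 UMIs against 4392 to 6221 in the rest, a difference whose part in the shares was not tested apart from the thinning.

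**Figure D5:**
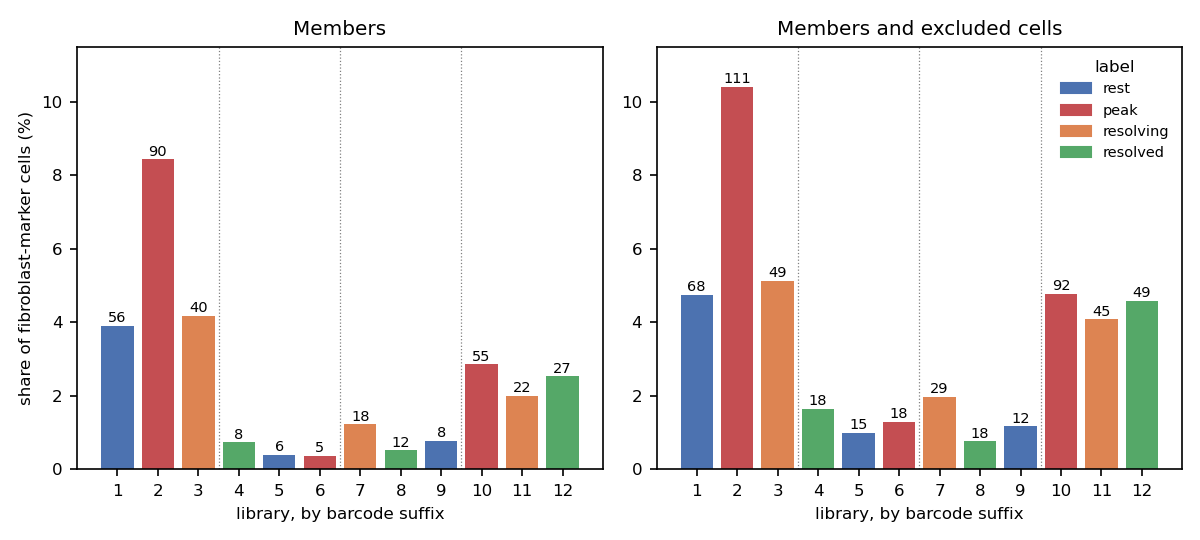
Share of fibroblast-marker cells that were members (left) and members plus the cells left out by the inflammatory limit (right), in percent for each library by barcode suffix, with numbers of cells above the bars and colours for the labels. Libraries 1 to 3 and 10 to 12 held the larger shares in both panels, under 4 different labels.

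To ask whether members also sit together in genes that did not choose them, the 16430 cells were clustered without the rule genes, which gave 17 clusters. A single cluster of 1476 cells, 724 of them from libraries 1 to 3, held 206 members (59.4%), where they were 13.96% of cells. Its leading genes besides the subset genes were *Inmt*, *Il1r2*, *Krtdap*, *Engase*, *Pi16* and *Amy1*. A second, led by *Scg3*, *Stmn2* and *Myoc*, held 46 members, and another, led by *Ifi205*, *C4b* and *Il6*, held 36 members and 70 of the cells left out by the limit. Clusters led by *Bglap*, by *F13a1* and *Clic5*, by cycling genes and by *Saa3* held 0 members. Among the 20 nearest cells of a member 17.1% were members, against 2.20% for other cells. Split by the library of the cell, with neighbours from any library, it was 15.7% to 19.1% for members and 0.93% to 7.27% for other cells. The smallest gap was in peak replicate 1 (19.1% against 7.27%). Of the neighbours, 15.2% to 40.1% came from the same library. Cells of a cluster share genes with its members by construction, and this is a description.

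Changes with label were tested within members on UMIs summed per library (edgeR quasi-likelihood test, Benjamini-Hochberg adjustment over 4049 genes, adjusted p under 0.05 and log2 fold change over 0.5, with the subset genes and the inflammatory genes of the rule not counted). Rest is then a single library, replicate 1, because replicates 2 and 3 held 6 and 8 members, and it is assumed to vary like the others. No gene was called at peak, in the resolving or in the resolved libraries (0 of 4049, 0%), with 91, 74 and 97 genes at an unadjusted p under 0.05. DESeq2 also called 0 in each, with 19, 15 and 17 at an unadjusted p under 0.05. *Hk2* differed from rest by a log2 fold change of 1.26 ± 0.78 (SE) at peak, 0.27 ± 0.81 in the resolving and 0.79 ± 0.86 in the resolved libraries, each with an adjusted p of 0.999. With all 12 libraries, each with at least 5 members, edgeR called 0 of 1489 genes in each comparison, with 47, 19 and 34 at an unadjusted p under 0.05. With the replicate number as a block, which here is the same split as the barcode run, 16 genes were called at peak, 2 in the resolving and 2 in the resolved libraries. Of the 16 at peak, 4 were lower, namely Gm42418 (-2.61), *Sfrp2* (-2.29), *Sfrp4* (-2.15) and *Itgbl1* (-1.80). Among the higher ones were *Col2a1*, *Col9a1*, *Matn3* and *Hapln1*, genes of cartilage. Over all 12 libraries, where number and run differ, same-numbered libraries correlated at -0.17 to 0.06 in members' sums and at -0.39 to 0.62 in those of other cells, which does not pair them by number. The other cells followed the run, so the counts with the block stand beside those without it.

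The cartilage genes rested on 1 cell. In peak replicate 1, *Col2a1* had 668 UMIs in 12 of 90 members and 655 of them lay in a single member. The same member held 142 of 149 UMIs of *Col9a1* and 146 of 147 of *Matn3*. In the other libraries the members had 0 to 18 UMIs of *Col2a1*.

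Whether the change from rest differed between members and the other cells of the same libraries was tested as an interaction over 10168 genes. At peak 33 genes (0.325%) were called. The change from rest was more positive in members for 21 (0.207%) and more negative for 12 (0.118%). In the resolving libraries 9 (0.0885%) were called, 1 more positive (0.00983%) and 8 more negative (0.0787%). In the resolved libraries 11 (0.108%) were called, 3 more positive (0.0295%) and 8 more negative (0.0787%). A positive sign is not a higher level. *Col2a1* was positive at peak, with 1271 and 9.34 CPM in members of replicates 1 and 3 against 2849 and 175 in other cells. Less the 1 cell described above, 13 were called at peak and the other counts were again 9 and 11. DESeq2 called 0 in each, with 85, 117 and 126 at an unadjusted p under 0.05. Without cells carrying 3 or more markers of another cell type, 3, 7 and 1 were called. *Fmod* (fibromodulin, a collagen-binding proteoglycan) went from 626 CPM in members at rest to 339 and 68.5 at peak, while other cells had 1719 at rest and 1718 and 2101 at peak (-1.96 ± 0.45 SE, adjusted p = 0.00442). *Gsta3* went from 136 CPM to 0 and 88.2 in the resolved libraries, against 11.6 to 2.24 and 29.4 in other cells (-2.09 ± 0.51, adjusted p = 0.0403). With all 12 libraries, each with at least 5 members, neither was called (adjusted p = 0.079 for *Fmod* and 1 for *Gsta3*), nor were they without cells carrying markers of another type (1 and 0.922). Among the small libraries, members of rest replicates 2 and 3 had *Fmod* at 0 and 1372 CPM and *Gsta3* at 0 in both, those of peak replicate 2 had *Fmod* at 0, and those of resolved replicate 1 had *Gsta3* at 158 CPM. Both calls rest on the single rest library, and without peak replicate 1 the count at peak was 6.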

How the data were processed

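UMI counts of 27998 genes in 21042 CD45-negative joint cells from 12 libraries were used as deposited by the authors. Per the labels each library pooled 3 mice, and the submitters' processing notes name Cell Ranger and mm10. Every library had a median of 5358 UMIs per cell, and a step that would bring libraries to one depth is not described. No column of another series was present (0 columns).

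Members were chosen by detected genes as described above. The members, markers and gene lists were chosen with earlier results of these data known. UMIs were summed per library over members and over the other fibroblast-marker cells, in libraries with at least 10 members (8 of 12, 320 members). Ratios are log2 of CPM + 5 for genes at a mean of at least 20 CPM in either class, without a test. Labels were tested with edgeR 4.0.16 (quasi-likelihood, Benjamini-Hochberg adjusted p under 0.05, log2 fold change over 0.5) in R 4.3.3, with the interaction of member status and label, and with DESeq2 1.42.0 as an alternative. The scripts were tested on simulated data. Shares were compared by exact permutation over libraries. Nothing in the labels says that libraries of a label were separate experiments, so p-values measure the spread between pooled libraries. Intervals and limits for counts of 0 cover counting error only. Clusters came from scanpy 1.11.5 and leidenalg 0.10.2.

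Named genes were the rule genes, the study's genes, the 20 highest and 10 lowest median ratios with 1 direction in every library, the 5 most variable, the largest changes past a label test's threshold, and 2 to 6 per list. Some genes that met this rule are not reported here. Genes outside this rule, such as *Sfrp1* and *Itgbl1*, were chosen after their values were seen. Scrublet called 56 cells (0.277%, 1 member), too few for a working caller, so no cell was removed in the results above. Leaving out the top 6% of doublet scores, as an alternative, removed 18 members. Other alternatives were the number of subset genes, the inflammatory limit, UMI and mitochondrial limits, thinning to 2000 UMIs, filters, pseudocount, blocks and each library left out.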

Additional observations from a re-analysis of the deposited data

Results flagged for a closer look

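The change from rest differed between members and the other fibroblast-marker cells, by the interaction test in edgeR (adjusted p under 0.05), for 33 genes at peak, 9 in the resolving and 11 in the resolved libraries. Rest is 1 library in each case. At peak, *Acan* (4.56), *Col11a1* (2.59), *Col2a1* (4.59), *Col9a1* (6.19) and *Matn3* (4.93), all cartilage genes, had a positive log2 difference. In peak replicate 1 a single member held 655 of 668 *Col2a1* UMIs. *Fabp4* (3.23), a fatty acid carrier of adipocytes and capillaries, had 172 of 181 UMIs in 1 member of peak replicate 3. *Coch* (-4.70), *Fmod* (-1.96) and *Npy* (-9.87) had a negative difference at peak. In the resolved libraries *Cxcl2* (-11.53), *Gsta3* (-2.09), *Mfap4* (-3.91) and *Sfrp2* (-1.92) had one, as did *Wif1* (-4.45) in the resolving libraries. In rest replicate 1, a single member held all 9 UMIs of *Coch*. For *Npy* 1 member held 7 of 8 UMIs there, and for *Wif1* 1 member held 25 of 39. With all 12 libraries, each with at least 5 members, 8 of these 14 genes were no longer called: *Acan*, *Col11a1*, *Fmod* and *Npy* at peak (adjusted p = 0.118, 1, 0.079 and 0.0505) and *Cxcl2*, *Gsta3*, *Mfap4* and *Sfrp2* in the resolved libraries (0.918, 1, 1 and 1). Members of resolved replicate 1, left out of the 8 libraries, had *Gsta3* at 158 and *Mfap4* at 1548 CPM, and those of rest replicates 2 and 3 had *Gsta3* at 0. Without cells carrying 3 or more markers of another cell type none of the 14 was called, and 9 of them were still tested. Where members of a label were all at 0 the fitted value depends on the prior count and is no bound. DESeq2 called 0 genes in each comparison, with 85, 117 and 126 at an unadjusted p under 0.05 (peak, resolving, resolved).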

How the results depend on the processing

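The share of members differed from rest in the opposite direction for the resolved libraries with at least 5 of 6 subset genes (0.056 points) and with no limit on inflammatory genes (0.034). With each library left out, the differences ranged from -0.085 to 3.96 points at peak, -0.086 to 1.88 in the resolving and -1.08 to 0.67 in the resolved libraries, and the p over 4 labels from 0.165 to 0.812. Genes called by label, 0 at each in the report, were 22, 5 and 3 (peak, resolving, resolved) with no filter on low counts, 16, 2 and 2 with the replicate block or the barcode run block, and 5, 1 and 5 with only the labels compared. Less the member with the most *Col2a1* UMIs they were 0, 1 and 1, and with each library left out 0 to 11, 0 to 2 and 0 to 1. Interaction counts of 33, 9 and 11 were 0, 0 and 0 by DESeq2, 0, 3 and 1 with at least 3 of 6 subset genes, 3, 7 and 1 without cells carrying markers of another type, and 13 at peak less the *Col2a1*-rich member. The resolving count was 4 with at least 5 members per library and 5 with no inflammatory limit. The resolved count was 2 with at least 5 members per library, 5 with no filter, 5 with at least 5 of 6 subset genes and 7 under upper UMI limits. With each library left out they were 6 to 41, 8 to 15 and 7 to 15. The cause was not tested. The 6 and 56 genes 2-fold higher and lower in every library were 2 and 31 with at least 5 members per library, 2 and 22 with at least 3 of 6 subset genes, and 3 and 24 with no inflammatory limit. They were 0 and 34 without cells carrying markers of another type, 3 and 9 against sublining-marker cells, and 6 to 9 and 60 to 75 with each library left out. Thinned to 2000 UMIs only 2 libraries held 10 members, which gave 264 and 630, and medians of -0.91 for *Il1r2*, -0.47 for *Slco2a1*, -0.53 for *Engase* and -0.91 for *Maob*. *Hk2* turned to -0.30 (resolving, at least 5 of 6) and, without high doublet scores, to -0.0036 (resolving) and -0.020 (resolved), and with each library left out it ranged from -0.18 to 0.57 (resolving) and -2.14 to 1.29 (resolved). Label and interaction tests were not run on thinned counts, nor without rest replicate 1, which leaves no rest library. The comparisons with sublining-marker cells, without cells carrying markers of another type, with at least 5 members per library and less the *Col2a1*-rich member were chosen after seeing the data.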
